A study of Mus musculus with 15 samples.

Results

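The adducin family comprises Add1, Add2 and Add3, which encode alpha-, beta- and gamma-adducin. All probe sets carrying the symbol of a family member were taken, which gave 3 of the 35556 probe sets of the deposited table, 1 for each gene. Add1 and Add3 were among the 10109 of 19938 named genes that passed a filter on low values (a log2 value above 5.31, the median of all gene values, in at least 5 arrays). Add2 did not pass it. The arrays came from choroid plexus, the ventricular tissue that secretes cerebrospinal fluid, of 15 C57BL/6J mice labelled male and aged 3 weeks. Wild-type mice carried 2 intact Add1 alleles, heterozygous mice 1 and null (knockout) mice 0, with 5 animals and 5 arrays per genotype and no treatment. The design places sampling at an age before hydrocephalus develops. The sources used here do not state which part of Add1 the null allele removes, so the Add1 probe set may still read RNA transcribed from the rest of the locus.

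Adducins are proteins of the membrane skeleton that cap the fast-growing barbed end of actin filaments and recruit spectrin to them. They work as heteromers, in which alpha-adducin pairs with beta- or gamma-adducin. Alpha and gamma are known from many tissues, whereas beta-adducin is known mainly from red blood cells and neurons. Arrays read the RNA of the members, not the amount or pairing of their proteins. The comparison asked whether Add2 or Add3 RNA differed where Add1 was reduced.

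The tissue label was checked first. Of 12 choroid plexus epithelium markers 10 were measured, and all 10 passed the filter. Their log2 values ran from 9.81, the lowest of Kcne2, to 13.19, the highest of Ttr. Their mean log2 deviation from the 15-array mean lay between -0.10 and 0.05 in every array. That deviation describes evenness between arrays and cannot test the identity of the tissue. A pair of null arrays, 1 and 5, showed Xist between 9.09 and 9.69 and Y-linked genes (Eif2s3y, Uty, Kdm5d) between 3.19 and 4.27, against Xist of at most 3.88 and Y-linked values of at least 6.92 in the other 13 arrays, which goes against their label as male. Heterozygous array 1 had a neuron marker score of 1.48, with the other arrays between -0.58 and 0.17, and also the highest oligodendrocyte (0.96) and astrocyte (0.83) scores. The neuron score is the mean deviation over 10 measured markers, of which Rbfox3, Nefl, Stmn2, Neurod1 and Tubb3 did not pass the filter. Scores of other cell types differed in mean between null and wild type: endothelium 0.22 and -0.09, stroma 0.21 and -0.08, astrocytes 0.23 and -0.25, macrophages 0.09 and -0.02, with 3 of 6, 6 of 6, 5 of 6 and 3 of 6 markers passing the filter. The ependyma (0.07 and -0.08) and oligodendrocyte (-0.01 and -0.08) scores were also higher in null. The neuron (-0.20 and -0.01) and erythroid (-0.0095 and 0.0035) scores were lower. Null astrocyte scores were uneven, from -0.28 to 0.76, with 0.76 in array 3 and 0.69 in array 4. The part of these cell types in the differences between null and wild type given here was not tested. In bulk tissue, fewer cells of a type and less RNA per cell cannot be told apart.

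Add1, the deleted gene and the source of alpha-adducin, was lowest in null mice. In wild-type arrays its log2 values were 7.96, 8.04, 7.78, 7.81 and 8.0 (replicates 1 to 5). In heterozygous arrays they were 7.68, 7.68, 7.74, 7.92 and 7.79. In null arrays they were 7.66, 7.74, 7.76, 7.46 and 7.41. All 5 null arrays lay below all 5 wild-type arrays, and null arrays 4 and 5 were lower than every other array. The heterozygous arrays overlapped both other groups, with 3 of 5 below the lowest wild-type array and arrays 4 and 5 inside the wild-type range.

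Null mice retained 80.6% of the wild-type Add1 signal (95% interval 71.8% to 90.4%). The means fell from 7.92 ± 0.116 to 7.61 ± 0.161 (SD, n = 5 each), a log2 difference of -0.31 (SE 0.0791, limma adjusted p = 0.0241). Of the genes that passed the filter 7.72% were called in this comparison, and 3.54% were called as lower in null. The arrays of these genotypes did not overlap for 5.95% of genes, and for 2.49% with null lower. An exact two-sided permutation test of Add1 gave p = 0.00794, the smallest that 5 against 5 arrays allow. The limma call was lost without wild-type array 1 (-0.30, adjusted p = 0.0636), wild-type array 2 (-0.28, 0.0681) or null array 4 (-0.28, 0.0512), without null arrays 1 and 5 together (-0.26, 0.1), and when only the null and wild-type arrays were fitted (-0.31, 0.0535). It was also lost with the number that precedes the dot in each sample's description as a covariate (-0.27, adjusted p = 0.25); that number ran from 429 to 451 in wild type and from 444 to 483 in null, so it was partly aligned with genotype.

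Mean Add1 in heterozygous mice lay between the other genotypes. Its mean of 7.76 ± 0.0996 (SD, n = 5) was 89.8% of wild type (95% interval 80% to 101%), and null was 89.8% of heterozygous with the same interval, because both log2 differences were -0.16. The fit called neither, with adjusted p-values of 0.994 and 0.224. In exact permutation tests the difference from wild type had p = 0.0635 and that of null from heterozygous p = 0.143. When heterozygous array 4, wild-type array 3 or wild-type array 4 was dropped, heterozygous against wild type had an exact permutation p of at most 0.0476 (-0.20 to -0.18), and null against heterozygous p = 0.0476 without null array 3 (-0.19). The slope over all 15 arrays was 0.16 per wild-type allele (SE 0.0387, limma adjusted p = 0.0276), where 5.61% of genes were called. Dropping any one of wild-type arrays 1 (0.15) and 2 (0.14) and null arrays 1 (0.16), 4 (0.14) and 5 (0.13) ended this call, with adjusted p-values up to 0.0658, and so did dropping null arrays 1 and 5 together (0.13, adjusted p = 0.118).

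**Figure D1:**
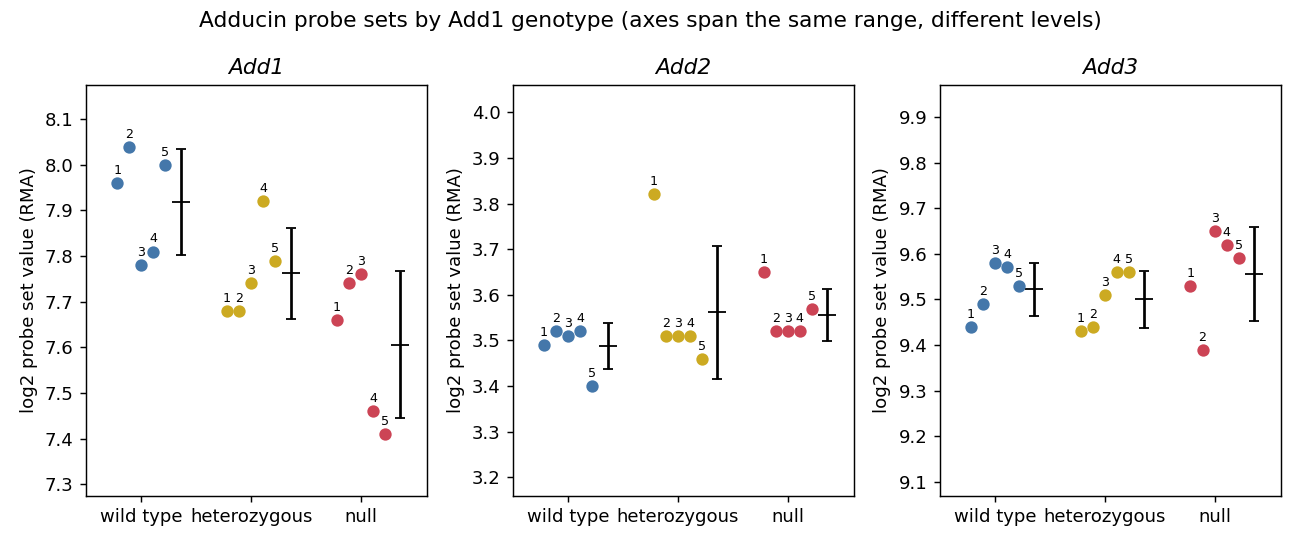
Log2 probe set values of Add1, Add2 and Add3 by Add1 genotype. Points are single arrays numbered by replicate, and the bar beside each group is the mean with its SD (n = 5). The 3 vertical axes span the same range at different levels, and levels of different probe sets are not comparable. Null values of Add1 (at most 7.76) lie below wild type (at least 7.78), whereas the groups overlap for Add2 and Add3.

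Add3, the source of gamma-adducin, was not called in any comparison. Wild-type arrays read 9.44, 9.49, 9.58, 9.57 and 9.53 (replicates 1 to 5). Heterozygous arrays read 9.43, 9.44, 9.51, 9.56 and 9.56. Null arrays read 9.53, 9.39, 9.65, 9.62 and 9.59. The groups overlapped throughout: null held both the highest values (arrays 3, 4 and 5 exceeded every wild-type and heterozygous array) and the lowest, in array 2.

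The null mean of Add3 was 9.56 ± 0.103 against 9.52 ± 0.0581 in wild type (SD, n = 5 each). The log2 difference was 0.03 (SE 0.0579, limma adjusted p = 0.765), and the exact permutation p was 0.556. Its 95% interval ran from -0.09 to 0.16, or from 94.1% to 111% of the wild-type signal. Changes of Add3 within that interval were not resolved by 5 arrays per group. The largest difference seen when 1 array was left out was 0.08, without null array 2 (adjusted p = 0.358).

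In heterozygous mice Add3 averaged 9.50 ± 0.0628 (SD, n = 5), 98.5% of wild type (95% interval 90.5% to 107%, exact permutation p = 0.595). No member was called between these genotypes, where limma called 0.0% of genes: 0 of 10109 at an adjusted p under 0.05, and 381 at an unadjusted p under 0.05. The count was also 0 when variances were not moderated. Null exceeded heterozygous by 0.06 (95% interval -0.07 to 0.18, limma adjusted p = 0.578, exact permutation p = 0.333), again with no member called where 7.82% of genes were. The slope of Add3 per wild-type allele was -0.02 (95% interval -0.08 to 0.04, limma adjusted p = 0.767).

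Add2, the source of beta-adducin, stayed in the low range of the arrays. Wild-type arrays read 3.49, 3.52, 3.51, 3.52 and 3.40 (replicates 1 to 5). Heterozygous arrays read 3.82, 3.51, 3.51, 3.51 and 3.46. Null arrays read 3.65, 3.52, 3.52, 3.52 and 3.57. None of the 15 values reached the filter value of 5.31. They lay inside the range of 3.19 to 4.27 that the Y-linked genes showed in the 2 arrays with Xist signal. Differences of a probe set this low are compressed, and a change of Add2 RNA may not have been measurable.

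The 3 highest Add2 values belonged to heterozygous array 1 and null arrays 1 and 5. Heterozygous array 1 (3.82) was the array with the high neuron marker score, and null arrays 1 (3.65) and 5 (3.57) were those with Xist signal. The neuron scores of null arrays 1 (-0.41) and 5 (-0.58) were lower than those of all other arrays. Without these 3 arrays the remaining 12 lay between 3.40 and 3.52. They include null arrays 3 and 4, which had high astrocyte scores (0.76 and 0.69) and Add2 values of 3.52. Whether any of these traits bears on Add2 was not tested. Null averaged 3.56 ± 0.0568 against 3.49 ± 0.0507 in wild type (SD, n = 5 each), a difference of 0.07 (95% interval -0.07 to 0.20). Because Add2 did not pass the filter, this comes from the fit of all 19938 named genes, which called 2.62% of them (limma adjusted p of Add2 = 0.714). The difference was 0.03 without null arrays 1 and 5. The exact permutation p was 0.0794. It was 0.0476 without null array 2, 3 or 4 (0.08 each) and 0.381 after each array was centred on its median.

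Between heterozygous and wild type the Add2 difference was 0.07 (limma adjusted p = 0.973, exact permutation p = 0.444), and it was 0.0095 without heterozygous array 1. Limma without the filter called 0.0% of genes in this comparison, 0 of 19938, with 881 at an unadjusted p under 0.05. Null and heterozygous differed by -0.006 (limma adjusted p = 0.972, exact permutation p = 1.0), in a fit that called 2.51% of genes. Without heterozygous array 1 this difference was 0.06 (adjusted p = 0.651). The part of RNA from neurons, oligodendrocytes or astrocytes in the Add2 value of heterozygous array 1 was not tested.

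**Figure D2:**
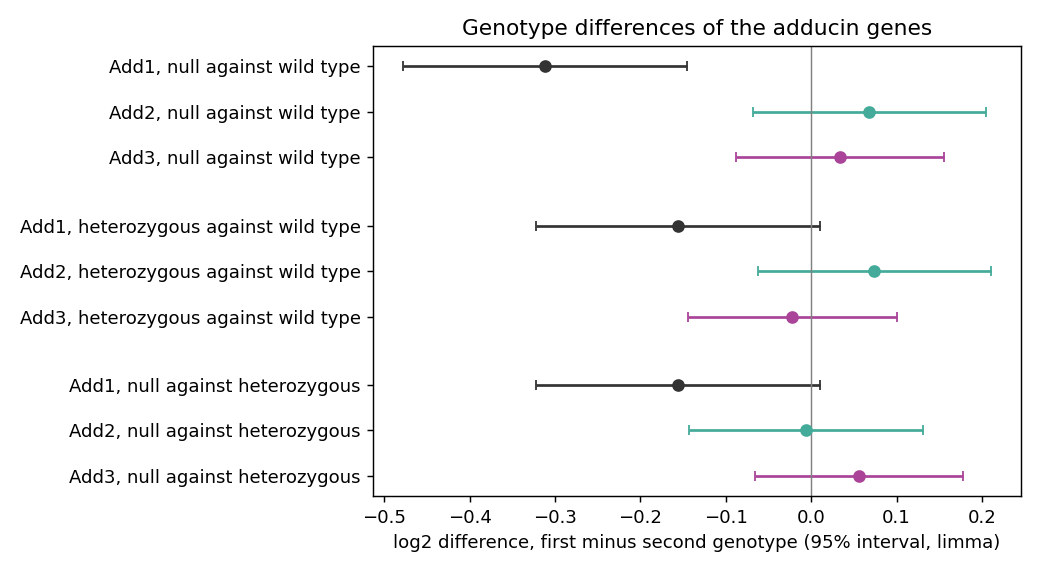
Log2 differences of the 3 adducin genes in each pair of genotypes (first minus second), with 95% intervals from limma. The 15 arrays enter 1 fit, filtered for Add1 and Add3 and unfiltered for Add2. The interval of Add1 between null and wild type (-0.48 to -0.15) lies below 0, and the other 8 intervals include 0.

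Markers of red cells and neurons, in which beta-adducin is best known, covered a wide range. Of 11 erythroid genes 4 were measured by a probe set of their own, and Epb42 (at most 3.98), Rhag (3.00) and Klf1 (4.09) lay below the filter, while Alas2, the haem synthesis enzyme of red cells, ranged from 4.95 to 6.96. The erythroid score ran from -0.15 to 0.11 in wild type, -0.17 to 0.16 in heterozygous and -0.31 to 0.31 in null arrays. The null arrays with the highest Add2 values had the highest erythroid score of all 15 arrays (0.31, array 1) and the lowest (-0.31, array 5). Only Alas2 of the 4 genes in this score passed the filter. Whether red cell RNA bears on Add2 was not tested. Of the neuron markers 5 of 10 passed the filter. The synaptic gene Syt1 ranged from 6.18 to 7.67 and Snap25 from 5.26 to 7.72. The others that passed were Gabra6 (4.42 to 7.8), Cbln1 (4.95 to 7.97) and Cbln3 (4.9 to 7.91). Of those that did not pass, Stmn2 reached 6.8, Neurod1 6.14, Rbfox3 5.88 and Nefl 5.32, and Tubb3 stayed below the filter value. Neuron scores ran from -0.08 to 0.12 in wild type, -0.24 to 1.48 in heterozygous and -0.58 to 0.17 in null arrays.

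Whether the family members changed by different amounts was tested within arrays. The log2 value of Add3 minus that of Add1 rose by 0.35 from wild type to null (exact permutation p = 0.0397), with overlapping groups. The p rose to between 0.0635 and 0.0794 when any one of wild-type arrays 1 (0.32), 2 (0.31) and 5 (0.33) and null arrays 4 (0.29) and 5 (0.29) was dropped, and to 0.107 without null arrays 1 and 5 together (0.30). This contrast contains the fall of Add1, the deleted gene. Add1 alone differed by -0.31, and Add3 alone by 0.03 (exact permutation p = 0.556). The contrast therefore cannot tell whether Add3 changed. Contrasts with Add2 are not read as tests, because Add2 was below the filter value in every array.

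**Figure D3:**
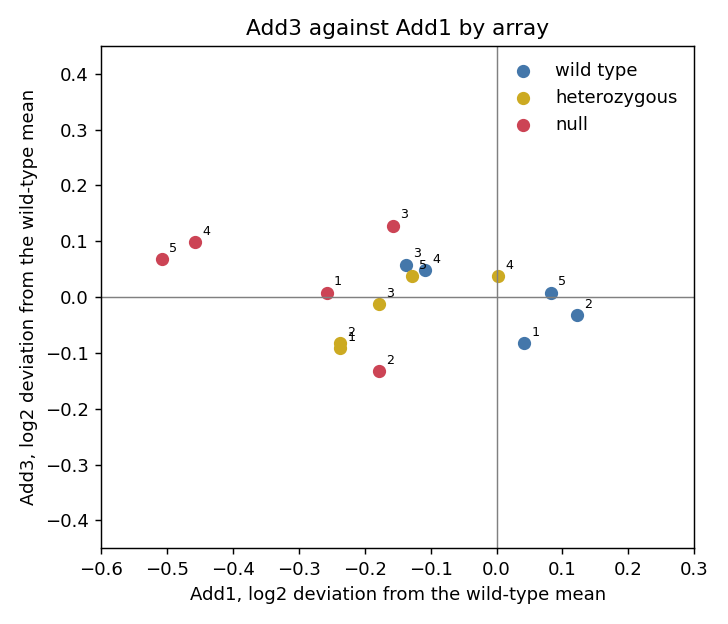
Add3 against Add1 by array, each as the log2 deviation from its wild-type mean. Points are arrays coloured by genotype and numbered by replicate. The null arrays lie to the left, at -0.16 to -0.51 for Add1, and spread on both sides of 0 for Add3, from -0.13 in array 2 to 0.13 in array 3.

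Within genotypes no correlation between members passed its test. After each genotype's mean was subtracted, Add1 and Add3 correlated over the 15 arrays at r = -0.197 (permutation p = 0.483, adjusted 0.544) and rho = -0.107 (permutation p = 0.701, adjusted 0.701). The r was -0.0529 without null arrays 4 and 5, the farthest on Add1. Add1 and Add2 gave r = -0.268 (permutation p = 0.36, adjusted 0.481) and rho = -0.254 (p = 0.357, adjusted 0.536), with r = -0.361 without those arrays. Add2 and Add3 gave r = -0.289 (permutation p = 0.292, adjusted 0.481) and rho = -0.288 (p = 0.294, adjusted 0.53), with r = -0.0603 without heterozygous array 1 and null array 1. Adjustment was over 9 relations, which also paired each member with the epithelial and the neuronal score.

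Add2 had the strongest of these other relations. With the neuron score it gave r = 0.713 (permutation p = 0.0204, adjusted 0.0919) and rho = 0.477 (p = 0.074, adjusted 0.251). With the epithelial score it gave r = -0.687 (permutation p = 0.00742, adjusted 0.0668) and rho = -0.512 (p = 0.0529, adjusted 0.251). Neither passed the adjustment, and both rested on few arrays: r was 0.234 without heterozygous array 1 and null array 3, and -0.255 without heterozygous array 1 and wild-type array 4. Add3 gave r = 0.424 with the epithelial score (permutation p = 0.115, adjusted 0.29; rho = 0.463, p = 0.0836, adjusted 0.251; 0.52 without the farthest 2 arrays). With the neuron score Add3 gave r = -0.406 (permutation p = 0.129, adjusted 0.29; rho = -0.384, p = 0.157, adjusted 0.354; -0.655 without the farthest 2 arrays). For Add1 the r was 0.249 with the epithelial score (permutation p = 0.374, adjusted 0.481; rho = 0.141, p = 0.614, adjusted 0.69; 0.0282 without the farthest 2 arrays) and 0.0249 with the neuron score (permutation p = 0.938, adjusted 0.938; rho = 0.179, p = 0.523, adjusted 0.672; 0.168 without the farthest 2 arrays).

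**Figure D4:**
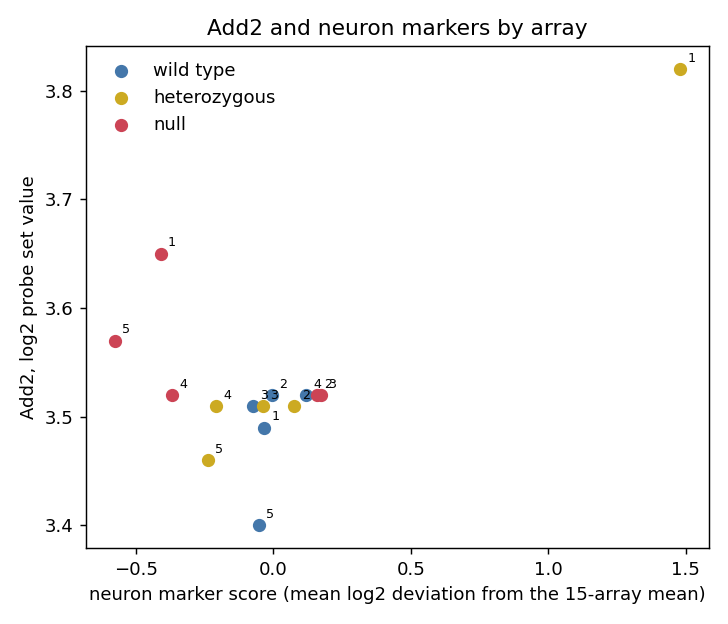
Add2 log2 value against the neuron marker score of each array, numbered by replicate and coloured by genotype. Heterozygous array 1 stands alone at a score of 1.48 and an Add2 value of 3.82. The other arrays lie between -0.58 and 0.17 on the score and between 3.40 and 3.65 for Add2.

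The genes whose within-genotype deviations were most like those of each member differed between members, as a description of these 15 arrays with no test. For Add1 they were the actin crosslinker Actn4 (r = 0.953), the growth kinase Mtor (0.932), the pyruvate carboxylase gene Pcx (0.913), Deaf1 (0.898) and Rnf10 (0.89), chosen as the highest of 10108 genes. These r lay between 0.841 and 0.935 without null arrays 4 and 5. Actn4 itself averaged 10.15 in wild type and 10.22 in null, a log2 difference of 0.07 (limma adjusted p = 0.506), so likeness within genotypes did not extend to the genotype difference of Add1. For Add3 they were Bclaf1 (0.904), Nsun7 (0.898), the RNA helicase Ddx42 (0.88), the RNA-binding protein Tardbp (0.867) and Bivm (0.858). Of these Nsun7 was higher in null than in wild type (0.54, limma adjusted p = 0.00356). For Add2 they were the presynaptic gene Rims3 (0.876), Garnl3 (0.876), Eif4e3 (0.874), Tigd5 (0.85) and the diacylglycerol kinase Dgkh (0.844), and these fell to between 0.49 and 0.608 without heterozygous array 1 and null array 1. In the order for Add1, Add3 ranked 8525 of 10108 genes.

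Of 26 listed partners of adducin in the membrane skeleton 22 had a probe set of their own and 17 passed the filter. Between null and wild type 1 rose and 1 fell (11.8%, beside 7.72% of all genes tested), with a median log2 difference of 0.04 beside 0.01 over all genes tested. Slc2a1, the glucose transporter that binds adducin in red cells, rose from 9.71 ± 0.102 to 10.3 ± 0.207 (SD, n = 5 each; difference 0.58, limma adjusted p = 9.42e-04), and its arrays did not overlap. Mpp1, a scaffold of the membrane skeleton, fell by 0.32 (limma adjusted p = 0.0257). Dropping any one of 5 arrays, namely wild type 1, 2 and 3 and null 1 and 3, ended its call (-0.31 to -0.26, adjusted p 0.0662 to 0.0752). It was also lost with only these genotypes fitted (adjusted p = 0.0509), without moderation (0.0517), with the label number as covariate (-0.38, 0.106) and without null arrays 1 and 5 (-0.30, 0.0621). Against heterozygous mice 1 partner was higher in null and 1 lower (11.8%, beside 7.82% of all genes tested). These were Slc2a1 (0.42, limma adjusted p = 0.00844) and, lower, the beta-spectrin gene Sptb (-0.21, 0.0259). Sptb lost its call when any one of heterozygous arrays 1, 3 and 4 and null arrays 1 and 4 was dropped (-0.22 to -0.19, adjusted p 0.0501 to 0.0627). Sptb also lost it with only these genotypes fitted (adjusted p = 0.0799), with the replicate block (0.055), with the label number (-0.17, 0.269) or the neuron score (-0.18, 0.0722) as covariate, and without null arrays 1 and 5 (-0.21, 0.0875). No listed gene was called between heterozygous and wild type. The counts of called partners are too small to set against the shares of all genes.

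A further list held 17 genes of barbed-end capping proteins, severing proteins and related regulators, of which 8 passed the filter. Capg, a gelsolin-like capping protein, rose from 5.50 ± 0.195 in wild type to 5.88 ± 0.150 in null (SD, n = 5 each; difference 0.38, limma adjusted p = 0.0193). Wild type and null overlapped in Capg, with wild-type arrays up to 5.83 and null arrays from 5.77. Dropping null array 1 ended the call (0.32, adjusted p = 0.0566), as did dropping null arrays 1 and 5 (0.30, 0.105), the label number as covariate (0.45, 0.0979) and no moderation (0.0507). Against heterozygous mice Capg was 0.39 higher (limma adjusted p = 0.0191), a call lost without heterozygous array 2 or null array 1 (0.32 to 0.34, adjusted p 0.0505 to 0.0566), without null arrays 1 and 5 (0.30, 0.106), with the label number (0.45, 0.0964) and without moderation (0.0501). Thus 1 of 8 was called against each genotype (12.5%, beside 7.72% and 7.82% of all genes), too few genes to set against those shares. The list's median was 0.06 between null and wild type, beside 0.01 over all genes tested.

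Among kinases, phosphatase subunits and calmodulins that act on adducin, 0 of 11 that passed the filter were called by limma in any comparison, where 7.72% (null against wild type), 7.82% (null against heterozygous) and 0.0% (heterozygous against wild type) of all genes were. With 11 genes, 0 calls do not set the list apart from these shares. The smallest p-values between null and wild type were those of the calmodulin gene Calm2 (0.14, limma adjusted p = 0.151) and the protein kinase A subunit Prkacb (0.18, 0.228). The list's median was 0.07, beside 0.01 over all genes tested. Calm2 differed by 0.04 (adjusted p = 0.687) when its probe sets were averaged, and Prkacb by 0.11 (0.484) without null array 3 and 0.30 (0.225) with the label number as covariate. Of the sodium pump and cotransporter genes, whose products adducin is known to influence in kidney, 4 of 7 had a probe set of their own. Limma called 0 of these 4 in any comparison, too few genes to set against the same shares of all genes. The pump subunit Atp1b1 differed by -0.14 (limma adjusted p = 0.111) and the cotransporter Slc12a2 by 0.15 (0.152) between null and wild type. With array weights Atp1b1 was called (-0.18, adjusted p = 0.0445), and without null arrays 1 and 5 Slc12a2 differed by 0.09 (adjusted p = 0.468).

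The 3 adducin genes lie on different chromosomes (5, 6 and 19), and the 10 nearest protein-coding genes of each were read as well. Around Add1, 6 passed the filter and 1, the transporter-like gene Mfsd10, was called between null and wild type (0.28, limma adjusted p = 0.0486). That call was lost in 12 of 15 fits that left out 1 array, all except those without null array 1, 4 or 5 (0.22 to 0.31, adjusted p 0.0513 to 0.131), and under 7 of the other settings (0.25 to 0.33, adjusted p 0.0535 to 0.177). Around Add2, 2 of 8 were higher in null, the kinase-complex gene Tprkb (0.57, limma adjusted p = 0.00216) and Nat8f4 (0.48, 0.00814). Against heterozygous mice both were also higher (0.61 and 0.37, limma adjusted p = 0.00179 and 0.0303), and Nat8f4 lost that call when heterozygous array 1, 2 or 5 or null array 1 was dropped (0.31 to 0.35, adjusted p 0.0618 to 0.0852). Nat8f4 also lost it without moderation (0.0673), with the label number (0.53, 0.055) or neuron score (0.33, 0.0798) as covariate, and without null arrays 1 and 5 (0.30, 0.145). Around Add3 limma called 0 of 4. Over all genes tested 7.72% were called between null and wild type and 7.82% between null and heterozygous. These counts are too small to set against those shares.

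Animals that share the number before the dot in their description allowed a comparison within that number; its meaning is not given in the labels. Under number 429, 1 heterozygous array was 0.32 below the mean of 2 wild-type arrays in Add1 and differed by -0.03 in Add3. Under number 432, 2 heterozygous arrays differed from 2 wild-type arrays by 0.04 in Add1 and -0.04 in Add3. Under number 460, the null array differed from the heterozygous array by -0.05 in Add1 and -0.17 in Add3. Add1 was thus lower in heterozygous than in wild-type animals under number 429 and not under 432. No number held both null and wild-type animals.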

How the data were processed

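RNA of each animal (250 ng, per the labels' protocols) was hybridised to 1 single-colour Affymetrix array. The deposited log2 values were made by the authors with Expression Console 1.1 and RMA, per the submitters' processing notes. The log base was read from the values (1.57 to 13.89, array medians 4.78 to 4.88). The sources used here do not name a build. Names come from platform annotation (21789 probe sets with 1 symbol, 1621 with several, 12146 not listed; 21698 gene identifiers found in the GRCm38.p6 gene table, used for names and gene order). The probe set with the highest mean stood for a gene. Limma 3.58.1 (R 4.3.3) fitted all 15 arrays with genotype as the factor; a gene was called at a p under 0.05 after Benjamini-Hochberg adjustment. Exact tests used 252 regroupings, correlations 100000 permutations. No arrays were identical (0 pairs). The number of arrays limits the precision. The fit was tested on simulated data. Named genes were the members, at most 4 per list and comparison (those called by p, else the smallest p), the 5 neighbours on each side by the same order, and the 5 most alike. Members, lists and alternatives were chosen with earlier results of these data known. Alternatives were filters, probe set choice, normalization, subsets, weights, blocks and covariates. The protein comparison was not run, as no protein table was used here.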

Additional observations from a re-analysis of the deposited data

Results flagged for a closer look

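In 24 sets of 5 arrays (each member, each difference of members, and the neuron and epithelium scores, by genotype) 4 values, from 3 arrays, lay far from the rest of their group; chance gives about 1 in 20, and the sets are not independent. Add2 in heterozygous array 1 was 3.82, with the other heterozygous arrays between 3.46 and 3.51. The neuron marker score of the same array was 1.48, with the others between -0.24 and 0.08. Add2 in wild-type array 5 was 3.4, with the others between 3.49 and 3.52. Add3 minus Add1 in heterozygous array 4 was 1.64, with the others between 1.75 and 1.77; this array had the highest heterozygous Add1 value, 7.92.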

How the results depend on the processing

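The fall of Add1 in null against wild type kept its direction in all 30 alternatives (-0.35 to -0.26 when 1 array was left out) and its call in 23. The call was lost with only the genotypes compared (-0.31), with the replicate block (-0.31, adjusted p = 0.0575), with the label number as covariate (-0.27) and without null arrays 1 and 5 (-0.26). The Add1 slope was 0.13 to 0.17 with 1 array left out, and lost its call over all probe sets, without moderation and with the replicate block (0.16 each), with the label number (0.14) and without null arrays 1 and 5 (0.13). Add3 minus Add1 was 0.29 to 0.42 with 1 array left out and 0.30 without null arrays 1 and 5. Replicate numbers were not taken to pair animals, since no comparison had every same-numbered pair above 0.1: correlations of deviations across genes were -0.224 to 0.0636 for null against wild type, -0.254 to 0.238 for null against heterozygous and -0.0562 to 0.15 for heterozygous against wild type. In the last, 4 of 5 arrays correlated best with their own number, and replicates 2, 3 and 4 share the label number. The block changed no other call of a member. Uncalled differences changed sign. Add2 between null and heterozygous was 0.0075 after a second quantile normalization, 0.0241 with array weights, 0.10 with the label number and 0.0554 with the neuron score as covariate (-0.0315 to 0.0585 with 1 array left out). With the label number Add3 was -0.0476 between null and wild type and -0.0213 between null and heterozygous, with a slope of 0.0245; between heterozygous and wild type it was 0.0037 after a second quantile normalization. The correlations of Add2 with the neuron and epithelium scores moved to 0.234 and -0.255 without the farthest 2 arrays.

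Counts of called genes were 780 for null against wild type (392 to 1420 with 1 array left out; 458 with only these genotypes, 492 without moderation, 259 with the label number, 401 without null arrays 1 and 5, 1315 with array weights). They were 791 for null against heterozygous (356 to 1812 with 1 array left out; 500 without the filter, 342, 470, 199, 332 and 1296 under the settings just named, 430 with the neuron score). For heterozygous against wild type the count was 0, and 1 with array weights, without wild-type array 4 or without null arrays 1 and 5. After median centring 294 genes were higher and 474 lower in null than in wild type, against 422 and 358 as deposited.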
